A study of Rattus norvegicus with 24 samples.

Results

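The regulators of mitochondrial biogenesis followed here are 10 nuclear genes: the coactivators Ppargc1a and Ppargc1b, the estrogen-related receptors Esrra, Esrrb and Esrrg, the transcription factor Nrf1, the mitochondrial DNA factors Tfam and Tfb2m, and the nuclear receptors Ppara and Ppard. They were picked by gene symbol from the deposited transcript table, where they hold 14 transcripts, and the values of a gene's transcripts were summed. They are 10 of the 15273 gene symbols listed. RNA was sequenced from tibialis anterior (TA), the muscle that lifts the foot, of 12 male Wistar rats. In each animal an implanted pulse generator stimulated the left hindlimb once a day so that the TA contracted against resistance, a regimen called SpillOver training, and the right TA of the same animal received no stimulation and served as contralateral control. Muscles were taken 1 h after the last bout following 2, 10, 20 or 30 days of training, with 3 animals per time point, which gives 4 trained groups of 3 and 12 contralateral muscles. Both muscles of an animal share the anesthesia and the abdominal generator, but the limb incision and the electrodes were on the trained side only, so that limb surgery and training cannot be told apart. No muscle of an untrained animal was analysed here. Every trained muscle had its last bout 1 h before, so the response to a bout and the accumulated effect of training cannot be told apart. RNA came from the part of the TA left after its middle had been taken for histology, and RNA of fibers and of all other cells is measured together.

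Mitochondrial biogenesis depends on nuclear genes that are switched on together. PGC-1 coactivators, the products of Ppargc1a and Ppargc1b, bind no DNA themselves but dock on transcription factors such as the estrogen-related receptors, NRF1 and the PPARs, which then raise genes of respiration and fat oxidation. NRF1 in turn acts on genes for factors such as TFAM and TFB2M, which enter the mitochondrion and start transcription of its own DNA. Ppargc1a mRNA is known to rise within hours of a bout of contraction in skeletal muscle, and PGC-1 activity is linked to the oxidative fiber type.

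Values are TPM-type, that is, scaled for transcript length and for the sample's total, and were divided here by a median-of-ratios factor for each sample (0.778 to 1.14). They can be set beside each other between genes but keep no read depth. The limma test was run over log2(value + 1) in 1 fit of all 24 samples, each trained group against the 12 contralateral muscles, and adjusted p-values are Benjamini-Hochberg values over the 11196 genes that reached 1 in 3 or more samples. All 4 comparisons use the same 12 control muscles. Of the 10 regulators, 9 passed this filter and Esrrb did not. Fold changes on the log2(value + 1) scale understate the change of low genes. In bulk tissue, fewer cells of a type and less RNA per cell cannot be told apart.

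In contralateral muscle the highest level was that of Esrra, an orphan receptor and partner of PGC-1, at 53.2 ± 5.96 (SD, n = 12). Tfam, which packages mitochondrial DNA and activates its promoters, followed at 38.2 ± 3.09, and Tfb2m, the factor that lets the mitochondrial polymerase open a promoter, at 28.6 ± 3.03. In all 12 muscles these genes kept this order. Esrrg (6.56 ± 1.12) and Ppard (6.47 ± 1.34) lay close together, with Esrrg above Ppard in 7 of 12 muscles. The next were Ppargc1a (3.14 ± 0.904), Nrf1 (2.83 ± 0.238), Ppara (2.61 ± 0.913) and Ppargc1b (2.24 ± 0.583), and neighbours in this part of the order were separated by less than their spread: Ppargc1a exceeded Nrf1 in 7 of 12 muscles and Nrf1 exceeded Ppara in 6. Esrrb was lowest at 0.141 ± 0.118. The control level of Ppargc1a exceeded that of 35.9% of tested genes, and that of Esrra exceeded 91.8%.

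**Figure D1:**
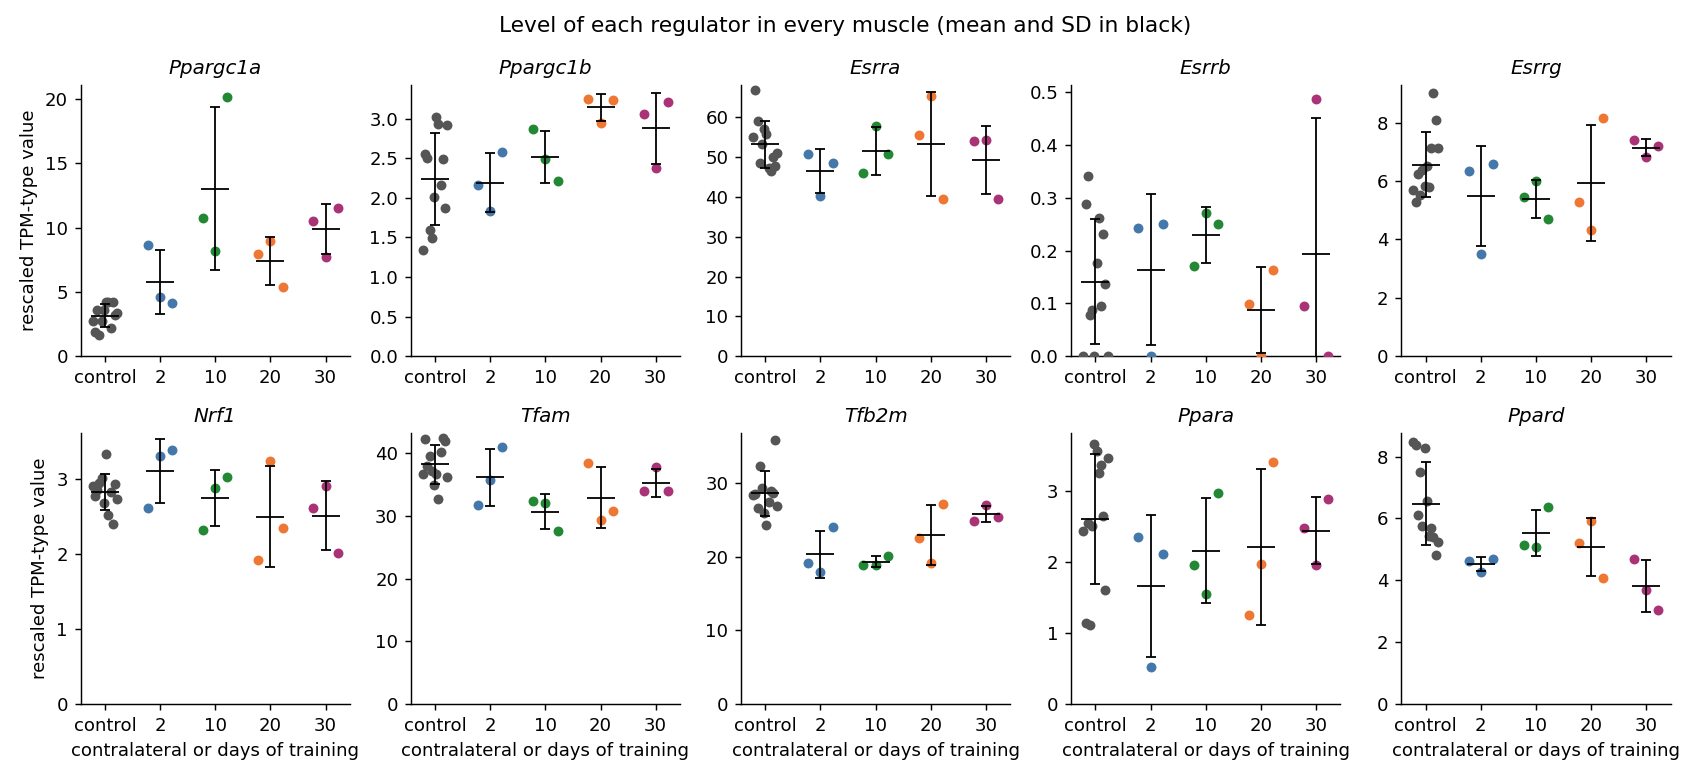
Level of each of the 10 genes (rescaled TPM-type value, y axis from 0) in the 12 contralateral muscles and in 3 trained muscles at each of 2, 10, 20 and 30 days; each point is 1 muscle and black bars give mean and SD. Ppargc1a lies above all 12 contralateral muscles at 10, 20 and 30 days, Tfb2m lies below them at 2 and 10 days, and the points of Esrra, Esrrg, Nrf1 and Ppara overlap the control range at every time point.

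Ppargc1a rose at every time point. In the 12 contralateral muscles its level ran from 1.61 to 4.24 with a median of 3.29. After 2 days of training the 3 muscles had 8.65, 4.57 and 4.12, and after 10 days 10.7, 8.14 and 20.2. After 20 days they had 7.92, 8.93 and 5.36, and after 30 days 10.5, 7.68 and 11.5. From 10 days on all 9 trained muscles stood above the highest control muscle, while at 2 days 1 of 3 lay within the control range. The share of all tested genes with such separation was not counted, here or for Tfb2m and Ppard below. The largest single value, 20.2, belongs to 1 muscle of the 10-day group, and the SD there (6.32) is correspondingly wide.

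On the log2(value + 1) scale the change of Ppargc1a was 0.69, 1.70, 1.03 and 1.41 (standard error 0.23 each) after 2, 10, 20 and 30 days, with adjusted p = 0.0287, 5.28e-06, 0.00214 and 1.14e-04. At these time points 15.4%, 15.6%, 11.7% and 11.1% of all tested genes were called higher, against 1 of the 9 tested regulators each time. On the values as deposited the split of all calls was 2132 higher to 731 lower at 2 days in place of 1728 to 1507, 2096 to 682 at 10 days in place of 1746 to 1494, and 647 to 2590 at 30 days in place of 1245 to 1059, while the median of all genes shifted to 0.07, 0.07 and -0.18. The call at 2 days was the least secure. It was lost without the trained muscle with the highest value, replicate 1 (0.40, adjusted p = 0.245), and without replicate 2 (0.80, adjusted p = 0.0589), and against the 3 control muscles of the same time point alone it was 0.82 (adjusted p = 0.0572). The other 3 calls held with every muscle left out in turn. With the animal as a block Ppargc1a passed at all 4 time points. Its changes there were 0.82, 1.88, 0.90 and 1.23 (adjusted p = 0.0137, 4.77e-05, 0.00998 and 0.00229).

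Set against the opposite limb, Ppargc1a was higher in the trained muscle of 12 of 12 animals, a pattern shown by 8.45% of tested genes. The ratio of trained over contralateral level was 3.15, 2.38 and 1.16 in the animals of 2 days and 6.65, 2.94 and 5.55 in those of 10 days. In the later groups the ratios were closer together, at 1.88, 2.13 and 2.45 after 20 days and 2.47, 2.40 and 3.39 after 30 days. The median over all animals was 2.46. Levels of the 4 trained groups were compared without the opposite limb, and the F test gave adjusted p = 0.0778 (12% of genes passed). The contrast of 10 against 2 days was 1.01 ± 0.29 with adjusted p = 0.0746 (1.93% of genes passed). The 95% interval for 10 against 2 days was 0.41 to 1.62. A higher level at 10 days was thus the direction of the estimate but did not pass over all genes. The fit with the animal as a block compares the trained minus contralateral differences between time points. There the F test gave adjusted p = 0.178 (128 of 11196 genes passed), and the contrast of 10 against 2 days was 1.06 (adjusted p = 0.241).

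The deposited table lists a single Ppargc1a transcript, on chromosome 14 from 63095720 to 63187010 (Rnor_6.0, plus strand), so transcripts from alternative start sites of the gene cannot be told apart in these values. Upstream sequence of the annotated start is shown because a cyclic AMP response element (letters TGACGTCA, its own reverse complement, searched on both strands) has long been described in this promoter and because CREB-type factors respond to contraction signals. These are the 250 bases before the RefSeq start site in the GRCr8 assembly, chr14:63634058-63634307, 5′ to 3′, with the match in capitals.
Ppargc1a upstream: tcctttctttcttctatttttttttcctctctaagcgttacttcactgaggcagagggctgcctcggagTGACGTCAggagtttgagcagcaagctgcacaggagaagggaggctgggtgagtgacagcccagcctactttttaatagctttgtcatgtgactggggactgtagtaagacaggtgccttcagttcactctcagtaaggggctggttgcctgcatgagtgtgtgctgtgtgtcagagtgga
A match to these letters occurs in 1.83% of the 33469 RefSeq promoter windows of 300 bases (250 before and 50 after the start). Promoter windows were found for 9 of the 10 regulators, and Ppargc1a was the only one of them with this match.

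Ppargc1b, the close relative of Ppargc1a, did not pass the threshold in any single time point. Contralateral muscles ran from 1.34 to 3.02, with a median of 2.32. After 20 days the trained muscles had 3.25, 2.94 and 3.23, the upper end of the control range or just above it, and the change was 0.38 ± 0.14 with adjusted p = 0.0602. At 2, 10 and 30 days it was -0.01, 0.14 and 0.28, with 95% intervals of -0.30 to 0.29, -0.15 to 0.43 and -0.02 to 0.57. Ppargc1b was higher in the trained limb of 11 of 12 animals. The share of all tested genes with 10 or 11 of 12 animals in the same direction was not counted, here or below. Its mean change over the 4 time points was 0.20 ± 0.09 (adjusted p = 0.0845), which passed when the animal was fitted as a block (adjusted p = 0.0464).

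**Figure D2:**
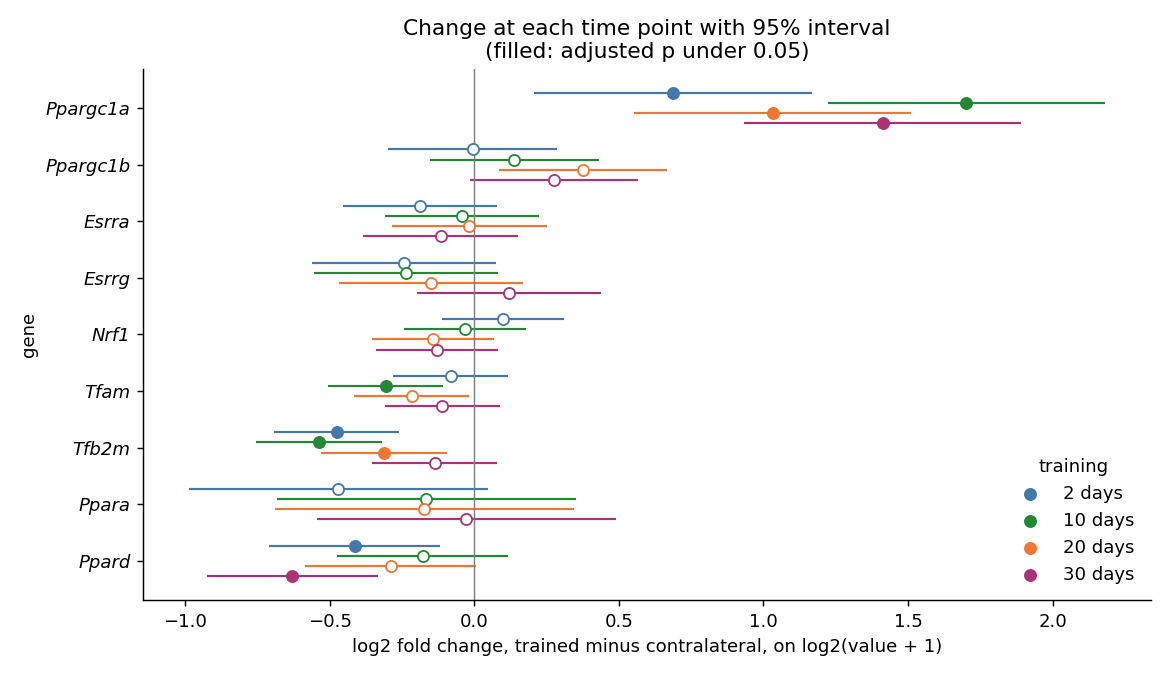
Log2 fold change of the 9 tested regulators at each time point (x axis, trained minus contralateral on the log2(value + 1) scale) with 95% intervals; filled points have an adjusted p under 0.05. Ppargc1a is the only gene to the right of 0 with filled points, at all 4 time points, and the filled points of Tfb2m, Tfam and Ppard lie to the left.

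Tfb2m moved the other way. Its contralateral level ran from 24.3 to 35.8 with a median of 28.5. After 2 days of training the muscles had 19.1, 17.9 and 23.9, and after 10 days 18.9, 18.8 and 20.1, all below the lowest control muscle. After 20 days they had 22.5, 19.1 and 27.1, and after 30 days 24.9, 27.0 and 25.4, the last group being inside the control range. The log2 fold changes were -0.48, -0.54, -0.31 and -0.14 (standard error 0.10 each), with adjusted p = 0.00133, 3.83e-04, 0.0351 and 0.387. Genes called lower made up 13.5%, 13.3%, 9.64% and 9.46% of all tested genes at 2, 10, 20 and 30 days, against 2, 2, 1 and 1 of the 9 regulators.

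The fall of Tfb2m at 20 days depended on how it was tested. With the animal as a block it was -0.23 (adjusted p = 0.272), without trained replicate 1 or replicate 2 it was -0.31 (adjusted p = 0.108) and -0.19 (adjusted p = 0.293), and on the values as deposited it was -0.31 (adjusted p = 0.0761). The calls at 2 and 10 days held under the block (adjusted p = 0.0304 and 0.00931). Tfb2m was lower in the trained limb of 12 of 12 animals, which 6.57% of tested genes were, and the ratio lay between 0.586 and 0.948 with a median of 0.766. Between the 4 trained groups the F test gave adjusted p = 0.132.

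Tfam showed a shallower fall. Control muscles ran from 32.7 to 42.4 with a median of 37.6, and after 10 days of training the muscles had 32.4, 32.1 and 27.5. The change at 10 days was -0.31 ± 0.10 (adjusted p = 0.0179). It was lost with the animal as a block (-0.27, adjusted p = 0.121), without trained replicate 3 (-0.23, adjusted p = 0.139) and on the deposited values (-0.19, adjusted p = 0.124). At 2, 20 and 30 days the changes were -0.08, -0.22 and -0.11, with adjusted p = 0.553, 0.113 and 0.456. Averaged over the time points Tfam was lower by -0.18 ± 0.06 (adjusted p = 0.0208), and 10 of 12 animals had the lower value in the trained limb. Across the 24 samples the log2 levels of Tfam and Tfb2m had a Pearson r of 0.65, and those of Ppargc1a with Tfam and Tfb2m had r of -0.73 and -0.68. These coefficients describe muscles that share animals and groups and carry no p.

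The start-site regions of both mitochondrial DNA factors are shown because they carry the elements by which nuclear respiratory factors are known to act. The letters GCGCANGCG (NRF-1 palindrome, both strands) matched in Tfb2m and CCGGAAG (an Ets core in the form bound by GABP, also called NRF-2, both strands) in Tfam. Both stretches are the 250 bases before the RefSeq start in GRCr8, 5′ to 3′ on the gene's strand, with matches in capitals: Tfb2m at chr13:93828595-93828844 on the minus strand and Tfam at chr20:17355123-17355372 on the plus strand.
Tfb2m upstream: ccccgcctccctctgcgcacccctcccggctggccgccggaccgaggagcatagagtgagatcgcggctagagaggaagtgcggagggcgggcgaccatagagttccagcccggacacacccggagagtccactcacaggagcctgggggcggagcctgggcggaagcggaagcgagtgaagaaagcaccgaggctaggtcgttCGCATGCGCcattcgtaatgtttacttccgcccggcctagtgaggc
Tfam upstream: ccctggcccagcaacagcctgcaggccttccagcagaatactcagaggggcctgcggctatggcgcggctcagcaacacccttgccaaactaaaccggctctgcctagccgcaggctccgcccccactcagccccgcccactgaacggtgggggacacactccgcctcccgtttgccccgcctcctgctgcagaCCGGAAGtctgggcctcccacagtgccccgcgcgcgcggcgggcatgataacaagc
The NRF-1 letters occur in 5.8% and the Ets letters in 8.75% of all promoter windows. Among the regulators the NRF-1 letters also matched in Esrra and Ppara. The E-box letters CACGTG (6.42% of windows) matched in Tfb2m after the start site, outside the stretch shown. The letters TNAAGGTCA of the estrogen-related receptor element (1.2% of windows) matched in none of the 9 genes with a window. A match is a string of letters and not evidence of binding.

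Of the PPARs, Ppard fell and Ppara did not pass. Ppard encodes PPARδ, the main PPAR of muscle, which with a retinoid X receptor drives genes of fat oxidation. Its contralateral level ran from 4.83 to 8.49 with a median of 5.93. The trained muscles had 4.61, 4.29 and 4.69 after 2 days, all under the lowest control, and 4.70, 3.69 and 3.04 after 30 days, also under it. At 10 days (5.16, 5.07 and 6.38) and 20 days (5.22, 5.93 and 4.08) they overlapped with control. The log2 fold changes were -0.41, -0.18, -0.29 and -0.63 (standard error 0.14 each), with adjusted p = 0.0325, 0.382, 0.162 and 0.00274.

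Contralateral Ppard was itself uneven over the time points, at 7.66 ± 1.34 (SD, n = 3) in the animals trained for 2 days, then 7.17 ± 1.29, 5.89 ± 0.591 and 5.16 ± 0.297 in those trained for 10, 20 and 30 days. The F test over the 4 contralateral groups did not pass for Ppard (adjusted p = 0.450) or any other regulator, and passed for 0.152% of genes. Within animals the calls shifted accordingly. With the animal as a block the change at 2 days was -0.64 (adjusted p = 0.00613) and that at 30 days -0.37 (adjusted p = 0.110), which against the controls of that time point alone did not pass either (adjusted p = 0.138). The 2-day call was lost without any 1 of its trained muscles (adjusted p = 0.0639 to 0.159) and on the deposited values (-0.32, adjusted p = 0.145). Ppard was lower in the trained limb of 11 of 12 animals, with a median ratio of 0.765, and its average change was -0.38 ± 0.09 (adjusted p = 0.00169). In the fits with the animal as a block, 21.6%, 20.1%, 17.4% and 12.3% of genes passed at 2, 10, 20 and 30 days, and 43.4% for the average.

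Ppara, the PPAR best known from liver, ran from 1.11 to 3.66 in control muscle and from 0.524 to 3.41 in trained muscle. Its changes were -0.47, -0.17, -0.17 and -0.03 with wide 95% intervals, the first from -0.99 to 0.05, and none passed (adjusted p = 0.162 to 0.955). The standard error of 0.25 was the widest of the 9 genes. Its 2 transcripts each varied widely, with SDs over the 12 controls of 1.17 for the longer and 0.989 for the other. How well reads were assigned to each was not tested. The longer (chromosome 7 from 126619196 to 126681753 in Rnor_6.0) carried 60.2% of the level and the other the rest. At 10 days their means moved in opposite directions, the longer from 1.92 in control to 0.409 and the other from 0.683 to 1.75. Over the alternatives the 10-day change of Ppara ran from -0.96 to -0.02, and none passed (lowest adjusted p = 0.0508).

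Esrra, the most abundant regulator, changed by -0.19, -0.04, -0.02 and -0.12 in order of training time, with 95% intervals of -0.46 to 0.08, -0.31 to 0.22, -0.28 to 0.25 and -0.38 to 0.15. Trained muscles ran from 39.4 to 65.2 and control muscles from 46.4 to 66.7. All 4 intervals include 0. Esrrg, the estrogen-related receptor of oxidative fibers, changed by -0.24, -0.24, -0.15 and 0.12, with adjusted p = 0.245, 0.276, 0.545 and 0.636, and its lowest interval bound was -0.56. Contralateral Esrrg was 8.08 ± 0.951 in the animals of 30 days and 5.75 ± 0.485 in those of 2 days (SD, n = 3).

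Nrf1, the factor named for the respiratory genes it binds, changed by 0.10, -0.03, -0.14 and -0.13 (adjusted p = 0.354 to 0.846), with all bounds of the 95% intervals between -0.35 and 0.31. Control muscles lay within 2.40 to 3.33, the narrowest relative spread of the low genes, and trained muscles within 1.92 to 3.38. Of its 2 transcripts, the more abundant carried 84.2% of the level. Esrrb, the third estrogen-related receptor, is listed at 0 in 6 of 24 muscles and reached 0.486 at most, and no fold change is given for it.

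**Figure D3:**
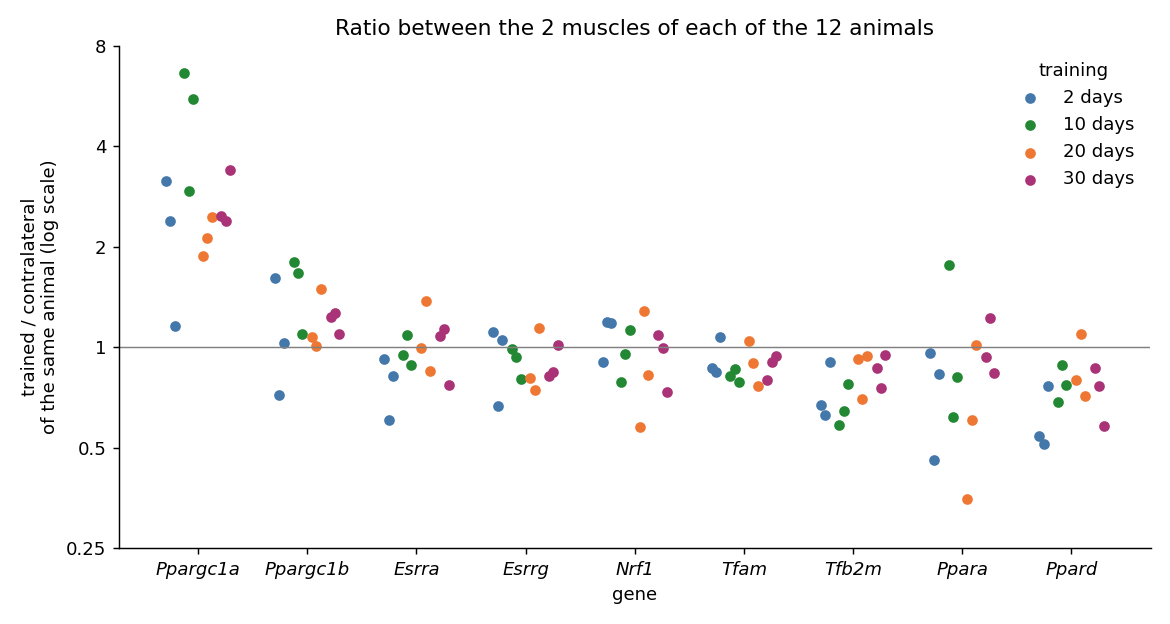
Level in the trained muscle divided by that in the contralateral muscle of the same animal (y axis, log scale) for the 9 tested regulators; each point is 1 of the 12 animals, colored by days of training. All 12 points of Ppargc1a lie above 1, from 1.16 to 6.65, all 12 of Tfb2m lie below it, and 11 of 12 of Ppard do so.

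Averaged over the 4 time points, Ppargc1a was higher by 1.21 ± 0.15 (adjusted p = 4.34e-07) and Tfb2m, Ppard and Tfam were lower, the first by -0.37 ± 0.07 (adjusted p = 9.38e-05). This is 1 regulator of 9 higher and 3 lower, where 19.9% of all genes were higher and 20.3% lower. The median change of the 9 regulators on average was -0.13 and that of all tested genes -0.02. No regulator passed the F test between the 4 trained groups over all genes, though Ppargc1a and Tfb2m had unadjusted p = 0.0118 and 0.0266.

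The genes with the pattern most like Ppargc1a over the 24 samples, among 3838 others with a mean of at least 10, were Tbc1d1 (Pearson r = 0.88), a Rab GTPase-activating protein of glucose transporter traffic, Col4a2 (0.87), a basement membrane collagen, and Efna1 (0.85), an ephrin ligand. For Ppard they were R3hdm4 (0.86), Nudt3 (0.84) and Chmp1a (0.83). These coefficients are descriptions over muscles of which 12 pairs share an animal.

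Genes that surround these regulators were described by list. In the list of other nuclear receptors and coregulators (19 tested), 8 genes fell and 1 rose at 2 days, 6 fell at 10 days, 4 fell and 1 rose at 20 days and 5 fell and 1 rose at 30 days. At these times 13.5%, 13.3%, 9.64% and 9.46% of all tested genes were called lower, and 15.4%, 15.6%, 11.7% and 11.1% higher. The rises in the list are under these shares. The blocked fit gave 8, 3, 3 and 2 falls and 0, 0, 0 and 1 rises. The median change was -0.34, -0.27, -0.24 and -0.16, against -0.01, -0.03, -0.03 and -0.01 for all genes. The retinoid X receptors, which pair with the PPARs on DNA, are among those that fell. Rxra went from 35.0 ± 6.85 (SD, n = 12) to 20.7 ± 3.53 over all 12 trained muscles, an average change of -0.72 ± 0.11 (adjusted p = 9.53e-06). Rxrg went from 34.0 ± 3.19 to 19.85 ± 3.68 at 2 days (-0.76, adjusted p = 1.22e-05) and 19.2 ± 1.28 at 10 days (-0.79, adjusted p = 5.64e-06). Perm1, a muscle coregulator induced by PGC-1 and the estrogen-related receptors, was at 62.2 ± 6.17 in control muscle and 96.1 ± 13.3 after 30 days (0.62, adjusted p = 0.00134). At 2 days Perm1 was lower than control (-0.44, adjusted p = 0.0118, and 0.0329 with the animal as a block).

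Other nuclear factors acting on mitochondrial genes (13 tested) included 2, 3, 2 and 2 that rose at 2, 10, 20 and 30 days, and 1 that fell at 30 days. Rises of 2 or 3 of 13 genes are near the 15.4%, 15.6%, 11.7% and 11.1% of all tested genes called higher, and with the animal as a block 1, 4, 2 and 2 rose. Myc, which drives growth and ribosome genes as well as nuclear genes for mitochondrial proteins, went from 1.40 ± 0.736 in control muscle to 17.1 ± 4.81, 13.8 ± 2.62, 9.89 ± 3.24 and 5.37 ± 1.27. Its changes were 2.93, 2.66, 2.19 and 1.45 (adjusted p = 2.94e-09 to 1.33e-04). Nfe2l2, the oxidative stress factor, rose at every time point (0.24, 0.34, 0.54 and 0.59, adjusted p = 0.0475, 0.00547, 1.07e-04 and 4.61e-05). Its 2-day call was lost with the animal as a block (adjusted p = 0.218). On the values as deposited 2 genes of this list were higher and 3 lower at 30 days.

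In the list of signaling genes upstream of PGC-1 (21 tested), which holds kinases, calcineurin subunits and a deacetylase as well as the CRTC coactivators and MEF2 transcription factors, 4, 7, 7 and 10 fell and 3, 4, 0 and 1 rose at the 4 time points. Among all tested genes 13.5%, 13.3%, 9.64% and 9.46% were called lower, and 15.4%, 15.6%, 11.7% and 11.1% higher. The falls at 2 days and all counts of rises are near or under these shares. Prkag3, the AMP kinase subunit of fast glycolytic fibers, went from 34.4 ± 8.60 to 15.1 ± 4.70 at 10 days, 8.04 ± 1.15 at 20 days and 7.86 ± 0.891 at 30 days, with changes of -1.15, -1.94 and -1.97 (adjusted p = 5.96e-05, 7.15e-08 and 9.17e-08). Prkaa1, an AMP kinase catalytic subunit, rose by 0.75 at 2 days and 0.58 at 10 days (adjusted p = 5.74e-05 and 8.36e-04). Its rise of 0.39 at 30 days (adjusted p = 0.0254) was lost with the animal as a block (adjusted p = 0.218). Ppp3cb, a catalytic subunit of calcineurin, fell at every time point. Its changes were -0.95, -0.75, -0.71 and -0.38 (adjusted p = 1.20e-06, 2.38e-05, 7.04e-05 and 0.0187). Camk2d rose at 2 and 10 days (0.70 and 0.54, adjusted p = 2.14e-05 and 3.59e-04). Camk2a fell at 10, 20 and 30 days (-0.54, -0.84 and -0.83, adjusted p = 0.00593, 1.18e-04 and 1.78e-04). Mef2c rose at 2 and 10 days (0.31 and 0.64, adjusted p = 0.0167 and 1.97e-05). With the animal as a block 5 genes fell at 30 days in place of 10.

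The machinery that copies and transcribes mitochondrial DNA had 13 tested genes. At 2, 10 and 20 days 2, 4 and 3 genes fell and none rose, and at 30 days 2 fell and 1 rose. At 2 and 30 days these falls are near the 13.5% and 9.46% of all tested genes called lower. The share called lower was 13.3% at 10 days and 9.64% at 20 days, and 11.1% were called higher at 30 days. The block left 0, 2, 1 and 1 falls and no rise, and the values as deposited gave 0, 0, 3 and 5 falls. Polg, the catalytic subunit of the mitochondrial DNA polymerase, was at 9.47 ± 1.36 in control muscle and 5.62 ± 1.46 after 20 days, a change of -0.67 ± 0.12 (adjusted p = 2.17e-04), and its average change was -0.51 (adjusted p = 8.22e-06). Mgme1, a nuclease of mitochondrial DNA upkeep, fell on average by 0.31 on the log2 scale (adjusted p = 0.00146). Polrmt, the polymerase that works with TFAM and TFB2M and was added here after its values were seen, changed by -0.21, -0.07, -0.07 and -0.27, with adjusted p = 0.364, 0.775, 0.825 and 0.270.

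Target genes of the PPARs and estrogen-related receptors in muscle (22 tested) were mostly lower early. At 2 days 15 fell and 2 rose, at 10 days 6 fell and 3 rose, at 20 days 1 fell and 3 rose, and at 30 days 1 fell and 7 rose. Among all tested genes 13.5%, 13.3%, 9.64% and 9.46% were called lower, and 15.4%, 15.6%, 11.7% and 11.1% higher. The rises at 2, 10 and 20 days and the falls at 20 and 30 days are near or under these shares. The median change was -0.50, -0.25, 0.04 and 0.13. Blocking by animal left 13, 6, 2 and 1 falls and 1, 2, 3 and 4 rises. On the values as deposited the 30-day pattern was the reverse, with 3 lower and 1 higher. Fabp3, the fatty acid binding protein of oxidative fibers, went from 285.8 ± 79.0 to 100.7 ± 19.7 at 2 days (-1.47, adjusted p = 2.86e-06). Plin2, a lipid droplet coat protein, rose at 2, 10, 20 and 30 days (0.87, 0.90, 0.80 and 0.47, adjusted p = 7.62e-05, 4.29e-05, 2.56e-04 and 0.0246). Its relative Plin5 fell at 2, 10 and 20 days (-0.97, -0.91 and -0.85, adjusted p = 4.91e-04, 8.91e-04 and 0.00222). At 30 days Plin5 did not pass (-0.53, adjusted p = 0.0524). Vegfa, the angiogenic factor that PGC-1 induces in muscle, rose by 1.00 at 20 days (adjusted p = 7.41e-04) and by 0.81 on average (adjusted p = 1.51e-05). Ckmt2, the mitochondrial creatine kinase, reached 730 ± 79.6 after 30 days from 417 ± 65.8 in control muscle (0.82, adjusted p = 6.32e-05).

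**Figure D4:**
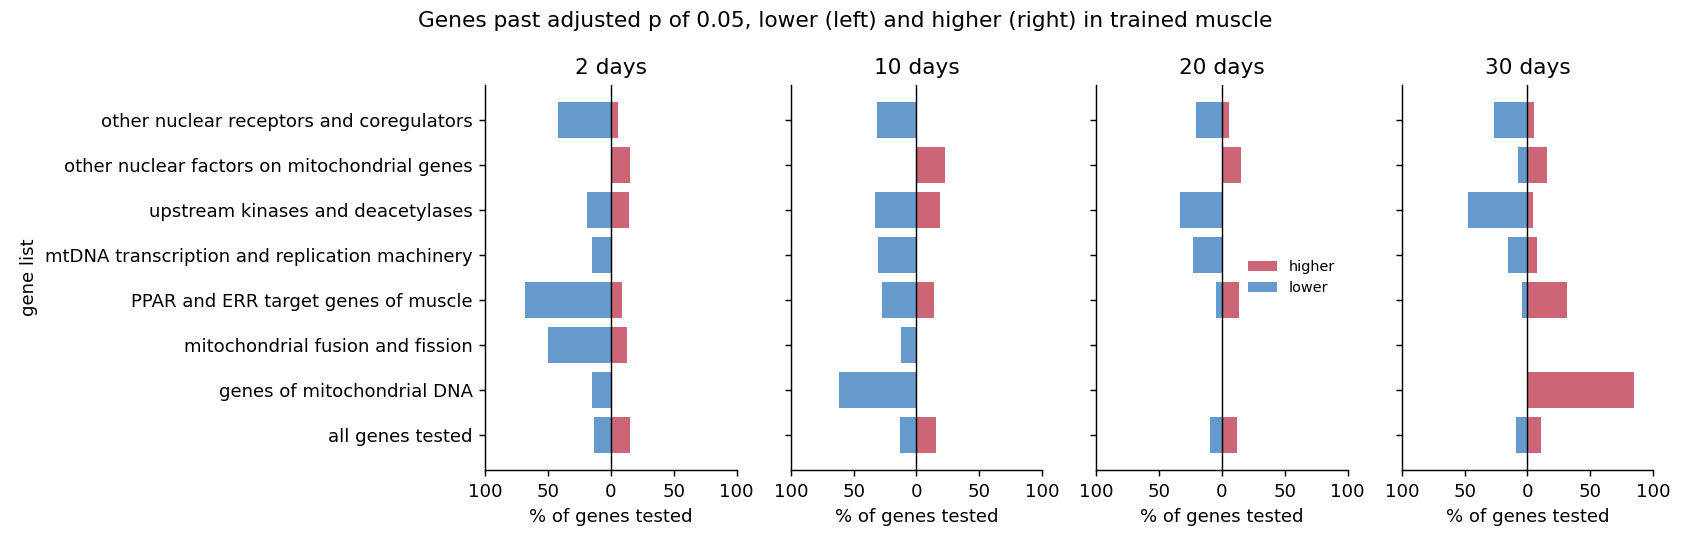
Share of tested genes in each list that passed an adjusted p of 0.05 at each time point, lower in trained muscle to the left and higher to the right (x axis, percent), with all 11196 tested genes at the bottom. Target genes of the PPARs and estrogen-related receptors lie left at 2 days (15 of 22) and right at 30 days (7 of 22, but 1 higher and 3 lower on the values as deposited), and the list of upstream signaling genes (upstream kinases and deacetylases in the plot) lies mostly left at 20 and 30 days.

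Of the 8 genes of mitochondrial fusion and fission, 4 fell and 1 rose at 2 days, 1 fell at 10 days and none passed later. Among all tested genes 13.5% were called lower and 15.4% higher at 2 days, and 13.3% lower at 10 days. The 1 rise at 2 days and the 1 fall at 10 days are near or under these shares. When the animal was fitted as a block, 2 fell at 2 days, none rose, and none passed at 10 days. Mfn2, an outer membrane fusion protein and a PGC-1 target, went from 89.8 ± 6.57 to 62.5 ± 13.6 at 2 days (-0.53, adjusted p = 3.45e-04). The 13 mRNAs of mitochondrial DNA itself had 2 falls at 2 days, 8 falls at 10 days, no call at 20 days and 11 rises at 30 days. The 2 falls at 2 days are near the 13.5% of all tested genes called lower. At 10 days 13.3% of all tested genes were called lower, and at 30 days 11.1% higher. With the animal as a block only 1 of these calls was made, the fall of Mt-nd6 at 10 days (-0.70, adjusted p = 0.0242, against -0.96 and adjusted p = 6.31e-04 with pooled controls). At 30 days Mt-co1 was 0.79 higher against the pooled controls (adjusted p = 0.00145) and 0.50 against the opposite limb (adjusted p = 0.159). All genes with a symbol starting with Mt- together made up 39.9% to 43.9% of the deposited total in trained muscle of 30 days. In the contralateral muscles of the same animals they made up 29.7% to 43.7%. Of those contralateral muscles 1 had the share of 43.7%.

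Markers of other cells moved along with training and stand beside each result above. The 6 leukocyte and macrophage markers summed to 2.67 to 7.65 in control muscle and to 9.58 to 24.5, 9.21 to 23.6, 14.2 to 17.9 and 13.2 to 19.7 at the 4 time points. The 4 fibroblast markers summed to 52.2 to 168.9 in control and 155.2 to 509.4 across trained muscle. Of 5 tested leukocyte markers 3, 4, 5 and 5 rose, and of 4 fibroblast markers 3, 4, 4 and 4 rose. Among all tested genes 15.4%, 15.6%, 11.7% and 11.1% were called higher. The 7 fiber markers in the table come from a list of 8 that includes fast-fiber genes such as Myh4. The paper reports a decline of type IIB fibers with training, and the part of fiber type in these sums was not tested. In control muscle the 7 markers summed to 81460 to 94180. After training they summed to 74740 to 79224 at 2 days, 77754 to 98493 at 10 days, 61001 to 94333 at 20 days and 73541 to 81023 at 30 days. All trained muscles of 2 and 30 days thus stood below the lowest control, and the lowest sum of all was in a muscle of 20 days. Of these 7 markers 3, 4, 4 and 3 fell, where 13.5%, 13.3%, 9.64% and 9.46% of all tested genes were called lower. Rises were 0, 2, 1 and 1, and no marker of these lists was at 0 throughout a group. The single tested satellite cell marker rose at 2 and 10 days, 1 of 3 endothelial markers fell at 2 days and 1 rose at each later time, 2 of 3 Schwann cell markers fell at 30 days, and no adipocyte or blood marker passed at a single time point. The part of these cells in the changes of Ppargc1a, Tfb2m, Tfam and Ppard was not tested.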

How the data were processed

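Poly-A RNA of 24 TA muscles was sequenced (paired Illumina reads). The authors used Partek Flow, with STAR as aligner and Rnor_6.0 as build, to quantify Ensembl transcripts. They deposited TPM-type values for 20027 transcripts with an equal total of 634431 per sample, a gene-level table of 4635 genes in units of signal, also by the authors, and their own comparisons (p-values, ratios, fold changes), which were not used. None holds counts, and the study gives read depth only as a minimum over samples, so the depth behind a single value and its precision cannot be given. The submitters' processing notes name Partek, STAR, DESeq2 and the build rn6.

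Transcript values were summed per gene and divided by median-of-ratios factors from the 16230 transcripts above 0 in all samples. The limma fit (limma 3.58.1, R 4.3.3) on log2(value + 1) had 5 groups, a threshold of 0.05 on the adjusted p, and tables and plots used Python 3.11.15 with numpy 2.4.6, pandas 2.3.3 and matplotlib 3.10.9. The regulators and the gene lists were chosen with earlier results of these data known. From each list and comparison at most the 2 largest and 2 smallest changes past the threshold could be named, which gave 84 calls. The text names mainly those among the 51 that every alternative kept, and for some of the named genes it also gives their other time points. The patterns most like a regulator were named for Ppargc1a and for the next regulator by size of change.

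The labels name the animal of each muscle, which pairs the limbs. Deviations from group means correlated at a median r of 0.17 within animals (0.03 to 0.34, 12 pairs) and -0.10 between animals of a time point. Deviations within a group cancel, so the second value follows from the first and is no separate check. On simulated data with 200 of 11196 genes changed, 10 draws of 3 muscles against 12, 50.3% of changes of 0.5 and 92.2% of changes of 1 (log2) were recovered, with 4.76% false calls. The draws were independent normal values with the spread of the control muscles and no pairing of limbs. Far more genes were called in the real comparisons, so these rates check the fit and are not those of the data. No 2 samples held identical values in 276 pairs. Alternatives were the deposited values, a pseudocount of 0.1, no filter, an intensity trend, the transcript with the highest mean, a threshold of 0.01, the animal as a block, time-matched controls, the gene-level table and each muscle left out in turn. The series text speaks of 4 animals per time point, and 3 are analysed here.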

Additional observations from a re-analysis of the deposited data

Results flagged for a closer look

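None of the 9 tested regulators passed the F test between the 4 trained groups after adjustment over all genes (lowest adjusted p = 0.0778, for Ppargc1a). Of 39 named genes of the surrounding lists, 14 did so by the F test over trained groups, which 12% of all tested genes passed. These 39 had been picked for large changes in the same fit, so the count cannot be set against that share. With the animal as a block 3 of the 14 (Prkag3, Fabp3 and Ckmt2) also passed, at adjusted p = 0.00208, 0.0330 and 0.0285, among 128 of all 11196 genes. Rxrg changed by -0.76, -0.79, -0.36 and -0.35 (log2) at 2, 10, 20 and 30 days, and the test of the difference gave adjusted p = 0.0290. For Perm1 the changes were -0.44, -0.07, 0.37 and 0.62 (adjusted p = 5.21e-04). For Myc the changes were 2.93, 2.66, 2.19 and 1.45 (adjusted p = 0.00789). For Camk2d the changes were 0.70, 0.54, 0.12 and 0.01 (adjusted p = 0.00207). For Prkag3 the changes were -0.17, -1.15, -1.94 and -1.97 (adjusted p = 6.14e-05). For Mef2c the changes were 0.31, 0.64, 0.06 and 0.01 (adjusted p = 0.00330). For Fabp3 the changes were -1.47, -0.61, 0.05 and 0.02 (adjusted p = 3.87e-04). For Ckmt2 the changes were -0.27, 0.06, 0.60 and 0.82 (adjusted p = 2.36e-04). For Opa1 the changes were -0.57, -0.13, 0.08 and 0.36 (adjusted p = 0.00598). For Mt-nd4l the changes were -0.63, -0.62, -0.16 and 0.70 (adjusted p = 0.00201). For Mt-co1 the changes were -0.46, -0.39, 0.14 and 0.79 (adjusted p = 8.11e-04). For Mt-nd6 the changes were -0.19, -0.96, -0.26 and 0.13 (adjusted p = 0.0235). For Mt-nd5 the changes were -0.41, -0.80, -0.21 and 0.41 (adjusted p = 0.00630). For Mt-atp8 the changes were -0.49, -0.44, 0.13 and 0.88 (adjusted p = 9.73e-04). Single muscles were not tested for standing apart.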

How the results depend on the processing

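Of the regulators' values under each alternative, 1220 kept direction and side of the threshold, 24 fell below it, 12 rose above it and 43 changed sign, and all sign changes were of values that had not passed. On the values as deposited, changes became 0.072 for Ppargc1b at 2 days, 0.076 for Esrra and 0.054 for Nrf1 at 10 days, 0.030 for Tfam at 2 days, -0.073 for Esrrg at 30 days and -0.26 for Esrra at 30 against 2 days. Ppargc1b at 2 days was 0.0018 with a pseudocount of 0.1 and 0.29 with its highest transcript, which gave 0.0019 for Nrf1 at 10 days. On the gene-level table Esrra was 0.031 at 10 and 0.029 at 20 days. With the animal as a block and with time-matched controls alike, Ppargc1b at 2 days was 0.046, Esrra at 20 days 0.074 and Esrrg at 30 days -0.15. For 30 against 2 days the block gave -0.060 for Esrrg and 0.27 for Ppard.

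With 1 muscle left out, Esrra 30 against 2 days ran from -0.026 to 0.22, Esrra at 10 days ran from -0.13 to 0.033, Esrra at 20 days ran from -0.17 to 0.18, Esrra at 30 days ran from -0.19 to 0.032, Esrrg at 20 days ran from -0.37 to 0.019, Nrf1 at 10 days ran from -0.089 to 0.051, Ppara at 20 days ran from -0.43 to 0.055, Ppara at 30 days ran from -0.12 to 0.077, Ppargc1b at 2 days ran from -0.090 to 0.076, Tfam 30 against 2 days ran from -0.11 to 0.062 and Tfam at 2 days ran from -0.17 to 0.0040.

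At a threshold of 0.01, 1958, 2050, 1420 and 1296 genes passed at 2, 10, 20 and 30 days, 571 differed between trained and 6 between contralateral groups. Time-matched controls gave 2007, 1589 and 1121 genes at 10, 20 and 30 days. The block of both muscles of an animal gave 1377 at 30 days and 128 between trained groups. Deposited values gave 2533 and 10 genes between trained and between contralateral groups, and the intensity trend 26 between contralateral groups. Leaving out 1 muscle gave 1492 (without trained replicate 2) to 3496 (without replicate 1) genes at 2 days, 2130 to 3295 at 10 days, 1730 to 2500 at 20 days, 1469 (without trained replicate 2) to 2438 at 30 days, 4115 to 4614 on average, 680 (without trained 2-day replicate 2) to 1605 between trained groups and 4 (without contralateral 2-day replicate 3) to 20 between contralateral groups. The cause of these differences was not tested.

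Ppargc1b passed at 20 days without contralateral replicate 1 or 2 of 20 days or replicate 3 of 30 days (adjusted p = 0.0390, 0.0425 and 0.0430). Tfam passed at 20 days without trained replicate 1 (-0.33, adjusted p = 0.0361). With deposited values Tfam and Tfb2m passed at 30 days (-0.33 and -0.35, adjusted p = 0.00766 and 0.0315). For 30 against 2 days of training, Ppargc1a passed without trained 2-day replicate 1 (1.01, adjusted p = 0.0239), Tfb2m without trained 2-day replicate 3 (0.46, adjusted p = 0.0435), and Nrf1 and Tfam on the deposited values (-0.47 and -0.36, adjusted p = 0.0258 and 0.0184). The deposited values keep no counts, so no counting error can be given.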
